A study of Mus musculus with 12 samples.

Results

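Collagen IX is encoded by Col9a1, Col9a2 and Col9a3, and these 3 genes were followed through 12 RNA-seq libraries of the mouse molar germ. The chains were chosen by symbol from a table of 25899 genes, after an earlier look at the same libraries had shown Col9a2 lower and Col9a3 higher without Nfic. Their differences between genotypes are therefore given as a description, with no test. Total RNA came from the apical, root-forming part of first mandibular molars at postnatal day 4. The libraries were 6 from Nfic-/- mice and 6 from their Nfic+/- littermates, the controls, all of the C57BL/6 strain. The controls still carry 1 copy of Nfic, so no library stands for the wild type. Nfic encodes a nuclear factor I transcription factor that is needed for molar root formation. The study is described as 6 littermate pairs and the libraries bear the numbers 5 to 10 in each genotype, but no label says outright that an equal number marks a pair. Nor do the labels say whether a library pools animals, so p-values measure the spread between these libraries.

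Collagen IX is a short, non-fibrillar collagen of the FACIT group, in which triple-helical stretches are broken by flexible segments. One chain of each kind joins into a heterotrimer, which sits on the surface of collagen II fibrils and links them to other matrix proteins. It is best known from cartilage, the vitreous body of the eye and the inner ear. The alpha1 chain can carry a large globular end that reaches out from the fibril, and the alpha2 chain can carry a glycosaminoglycan chain.

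The genes lie on different chromosomes, all on the plus strand of GRCm38 (mm10). Col9a1 (ENSMUSG00000026147) spans chr1:24177610-24252684, with 5068 exonic bases in GENCODE M21. Col9a2 (ENSMUSG00000028626) spans chr4:121039385-121055322, with 3095 exonic bases. Col9a3 (ENSMUSG00000027570) spans chr2:180597790-180622189, with 3853 exonic bases. Col9a1 has 2 annotated starts, the upstream one of the long form with the globular end and a downstream one of a short form. Values per gene, as used here, do not separate these forms.

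Start regions are shown because Nfic encodes a DNA-binding factor. Of the 3 chains, 2 matched the RefSeq promoter table, Col9a1 and Col9a2, and Col9a3 did not. Each window runs from 250 bases before to 50 bases after a RefSeq start (GRCm38.p6), on the plus strand. Capitals mark the half-site of nuclear factor I, TTGGC on either strand. The windows are chr1:24177360-24177659 and chr1:24194953-24195252 for Col9a1, and chr4:121039316-121039615 for Col9a2.
Col9a1 upstream start: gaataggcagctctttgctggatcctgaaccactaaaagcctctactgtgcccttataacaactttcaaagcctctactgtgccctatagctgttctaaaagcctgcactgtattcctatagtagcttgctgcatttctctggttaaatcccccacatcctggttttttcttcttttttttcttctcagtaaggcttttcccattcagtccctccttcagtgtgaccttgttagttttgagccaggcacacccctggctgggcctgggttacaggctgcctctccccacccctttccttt
Col9a1 downstream start: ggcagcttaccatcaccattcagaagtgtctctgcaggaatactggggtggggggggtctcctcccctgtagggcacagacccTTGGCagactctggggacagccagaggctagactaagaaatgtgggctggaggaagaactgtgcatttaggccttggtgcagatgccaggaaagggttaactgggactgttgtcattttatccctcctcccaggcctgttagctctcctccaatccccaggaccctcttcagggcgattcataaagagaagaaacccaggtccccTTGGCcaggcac
Col9a2 start: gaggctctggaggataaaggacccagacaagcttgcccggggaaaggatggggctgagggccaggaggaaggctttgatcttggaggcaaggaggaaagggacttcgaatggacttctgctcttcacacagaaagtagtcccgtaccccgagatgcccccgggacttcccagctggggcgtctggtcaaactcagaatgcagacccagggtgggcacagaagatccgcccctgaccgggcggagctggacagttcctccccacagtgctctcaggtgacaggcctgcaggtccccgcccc

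The downstream Col9a1 window held 2 half-sites, and the other 2 windows held 0. Of 32851 mouse promoter windows of 300 bases, 46.7% held at least 1 half-site and 14.4% held 2 or more. The full palindrome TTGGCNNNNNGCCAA occurred in 0.0365% of all windows and in 0 of the 3 shown. These matches are letters in a window and say nothing about binding. The GC content was 47.3% and 55.7% for the Col9a1 windows and 61.7% for the Col9a2 window, against a median of 52.7%.

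Each library rested on about 70.2 to 96.4 M reads, as read from the steps between low values. Nfic mRNA was lower but still present in the null molars, at 11.4 ± 3.02 RPKM in Nfic-/- and 16.8 ± 4.42 RPKM in Nfic+/- molars (SD, n = 6 each). RPKM is a read count scaled to gene length and library depth, and the value for Nfic covers the whole gene, not the disrupted part alone. The Nfic difference was -0.52 in log2(RPKM + 1), lower under all 6 numbers, with an exact 2-sided permutation p of 0.0303. Without Nfic-/- 5 or 6 or Nfic+/- 6 or 10 this p was above 0.05, up to 0.0628. Some libraries stood apart by markers of other tissues. The sum over 8 intestinal genes was 114 to 147 RPKM in the libraries numbered 8 and 9 of both genotypes and 0.0779 to 0.114 RPKM in the other libraries. The sum over 5 skeletal muscle genes was 37.2 RPKM in Nfic-/- library 9 and 2.77 to 7.4 RPKM elsewhere.

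Of 12094 genes that averaged at least 1 RPKM, limma called 0 between the genotypes at an adjusted p of 0.05 (Benjamini-Hochberg), a background of 0%. Before adjustment 646 of them had p below 0.05, and the smallest adjusted limma p was 0.934. Of the 3 chains, Col9a2 and Col9a3 passed this filter on low values and Col9a1, with means of 0.742 RPKM in Nfic-/- and 1.03 RPKM in Nfic+/- molars, did not. The standard error of Col9a1 below comes from the same model without the filter, on 21002 genes.

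The mRNA levels of the 3 chains were very unequal. The protein, which holds the chains in equal number, was not measured. RPKM is a level per length, so the chains can be set side by side, though the long and short forms leave the length of Col9a1 less certain. Col9a3 ranked 5th of 43 collagen genes in Nfic-/- and 6th in Nfic+/- molars by mean RPKM. Col9a2 ranked 13th in Nfic-/- and 9th in Nfic+/- molars, and Col9a1 ranked 33rd in Nfic-/- and 32nd in Nfic+/- molars. Mean Col9a3 lay above 98.9% of all genes in Nfic-/- molars, and mean Col9a1 above 51.1%.

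Within a library, Col9a3 exceeded Col9a2 in 6 of 6 Nfic-/- libraries, by a mean log2 ratio of 2.73 ± 1.42, and in 5 of 6 Nfic+/- libraries, by 0.57 ± 1 (SD, n = 6 each). In the controls this ratio was smaller than its spread. These ratios are given without a p-value, because the choice of the genes bears on them. The order of Col9a2 and Col9a1 was tested inside each genotype by an exact 2-sided sign-flip test. Its p was adjusted over 6 comparisons of chain levels, those of Col9a3 included. Col9a2 exceeded Col9a1 in every library, by 5.61 ± 0.99 in Nfic-/- and 5.54 ± 0.38 in Nfic+/- molars (SD, n = 6, adjusted exact p = 0.0375 for each). The raw p of 0.0312 behind these calls is the smallest that 6 libraries can give. It follows whenever every library has the same order, so it adds nothing to the ratios.

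Col9a2, the alpha2 chain, was lower in the null molar under every number. It had 4.57 to 71.4 RPKM in Nfic-/- libraries, with a median of 14.4 RPKM, and 13.8 to 116 RPKM in Nfic+/- libraries, with a median of 41.3 RPKM. Means were 20.9 ± 25.2 RPKM in Nfic-/- and 48.8 ± 34.9 RPKM in Nfic+/- molars (SD, n = 6 each), and the groups overlapped. The difference was -1.51 in log2(RPKM + 1) (limma SE 0.57).

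Compared number by number, Col9a2 in the null library was 14.1% to 61.3% of the control, and 19.2% to 62% after the libraries were scaled to a common median ratio. The null library held 33% of the level of its Nfic+/- namesake at number 5, 36% at numbers 7 and 8, and 33.5% at number 9, which after scaling were 27.8%, 34.1%, 39.1% and 29.5%. Farther from these were number 6, with 5.3 RPKM in Nfic-/- and 37.6 RPKM in Nfic+/- (14.1%), and number 10, with 71.4 RPKM in Nfic-/- and 116 RPKM in Nfic+/- (61.3%). Both libraries numbered 10 held the highest Col9a2 of their genotype, and both numbered 5 the lowest. Without number 10, Col9a2 averaged 10.8 ± 5.37 RPKM in Nfic-/- and 35.3 ± 12.1 RPKM in Nfic+/- molars (SD, n = 5 each). Of all genes tested, 2.68% were lower in the null library under all 6 numbers.

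Col9a1, the alpha1 chain, was scarce and went the same way as Col9a2 except at number 10. It had 0.0436 to 3.12 RPKM in Nfic-/- libraries, with a median of 0.338 RPKM, and 0.249 to 1.93 RPKM in Nfic+/- libraries, with a median of 1 RPKM. The range within the null group was 71.6-fold, against 7.75-fold in the controls. The lowest values, in Nfic-/- libraries 5 and 6, rested on about 20 and 19 reads, and the highest on about 1448.

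The null library was lower in Col9a1 under 5 of 6 numbers, which held for 8.32% of all genes tested at 5 or more. At number 6 it held 5.58% of the control level, at number 5 17.6%, at number 8 16.9%, at number 7 53% and at number 9 67.6%. At number 10 the order was turned round, with 3.12 RPKM in Nfic-/- and 1.93 RPKM in Nfic+/-. The overall difference was -0.36 (limma SE 0.33) in log2(RPKM + 1), a scale that understates the change of so low a gene. It was -0.65 without Nfic-/- library 10 and -0.21 in the libraries numbered 8 to 10.

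Col9a3, the alpha3 chain, was higher in the null molar under 5 of 6 numbers, and 13.3% of all genes tested were higher at 5 or more, with 2.69% higher at all 6. It had 71.8 to 111 RPKM in Nfic-/- libraries, with a median of 88.4 RPKM, and 48.9 to 98.4 RPKM in Nfic+/- libraries, with a median of 53.8 RPKM. Means were 89 ± 14.5 RPKM in Nfic-/- and 62.1 ± 19.2 RPKM in Nfic+/- molars (SD, n = 6 each). The difference was 0.54 in log2(RPKM + 1) (limma SE 0.17).

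The overlap of the Col9a3 groups came from 1 control library. Nfic+/- library 6, at 98.4 RPKM, lay above 4 of the 6 null libraries, while the other 5 controls, at 48.9 to 68.1 RPKM, lay below all of them. Number 6 was also the 1 number at which the null library was lower, with 71.8 RPKM in Nfic-/- and 98.4 RPKM in Nfic+/-. After the same scaling, that number had 82.7 RPKM in Nfic-/- and 83.1 RPKM in Nfic+/-, while the other 5 stayed higher in the null library. The null level was 202% of the control at number 5 and 217% at number 9, and 128% to 159% at numbers 7, 8 and 10. Neither Col9a3 nor the other chains separated the genotypes fully, which 0.157% of the genes tested did.

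The libraries numbered 8 and 9, which hold the intestinal transcripts, were also left out, a check added after values had been seen. This gave differences of -0.26 for Col9a1, -1.54 for Col9a2 and 0.45 for Col9a3, and again 0 genes were called by limma.

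**Figure D1:**
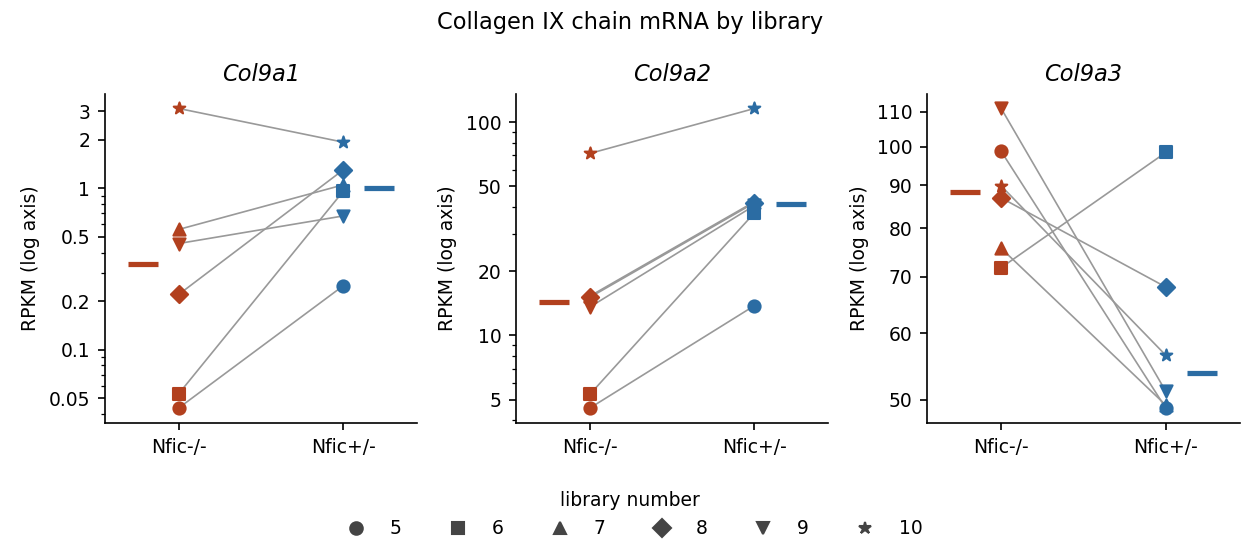
RPKM of Col9a1, Col9a2 and Col9a3 in each library on log axes, with Nfic-/- left and Nfic+/- right, a marker shape for each number, lines that join equal numbers and bars beside the points for group medians. Col9a2 lies lower in Nfic-/- along all 6 lines, Col9a1 along 5 and Col9a3 along 1, and number 10 is highest for Col9a1 and Col9a2 in both genotypes.

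The shares of the chains in collagen IX mRNA restate the shifts by which they were chosen, and the groups overlapped in each share. The summed level of the chains was 77.2 to 164 RPKM in Nfic-/- and 63 to 175 RPKM in Nfic+/- libraries, with a median of 102 RPKM in each group. Col9a2 made up 4.42% to 43.5% of that sum in Nfic-/- libraries and 21.9% to 66.6% in Nfic+/- libraries, and its share was lower in the null library under all 6 numbers. Col9a1 made up 0.0422% to 1.9% in Nfic-/- and 0.394% to 1.17% in Nfic+/- libraries. The level of Col9a3 was 1.26 to 21.6 times that of Col9a2 in Nfic-/- libraries, with a median of 6.94, and 0.485 to 3.54 times in Nfic+/- libraries, with a median of 1.44. Nfic+/- library 10 was the 1 library in which Col9a2 exceeded Col9a3.

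**Figure D2:**
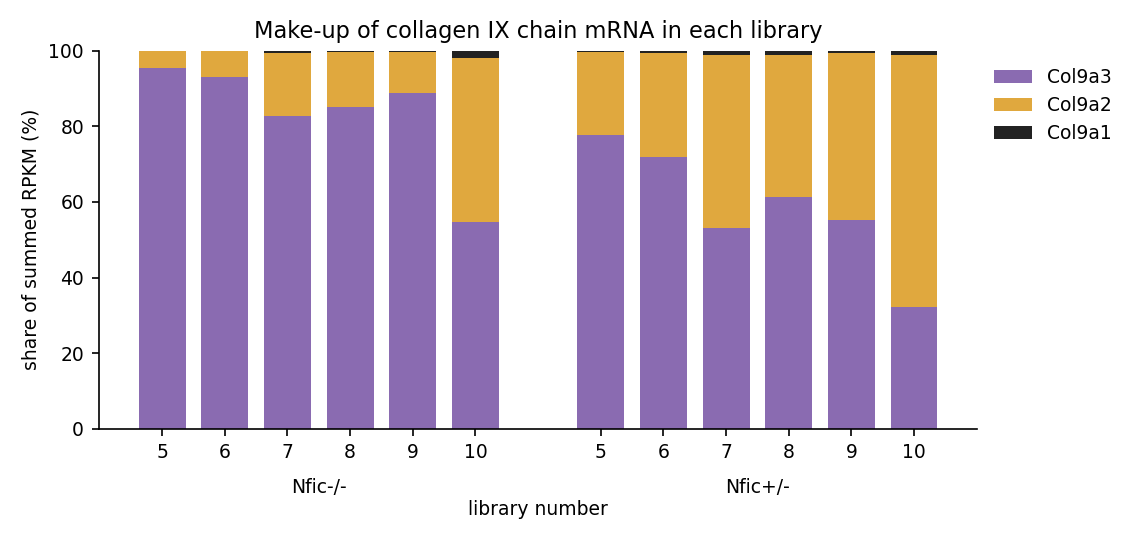
Share of each chain in the summed RPKM of Col9a1, Col9a2 and Col9a3, in percent, with 1 bar for each library, Nfic-/- left and Nfic+/- right. Col9a3 makes up 54.6% to 95.5% of the bars in Nfic-/- and 32.3% to 77.7% in Nfic+/- libraries, and Col9a1 is barely visible.

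Inside a genotype, Col9a1 and Col9a2 were high and low in the same libraries, and Col9a3 followed another order. In log2(RPKM + 1), Col9a1 with Col9a2 gave r = 0.95 in Nfic-/- libraries (n = 6, exact permutation p = 0.00694, adjusted over 18 relations 0.0625) and Spearman rho = 0.94 (exact p = 0.0167, adjusted 0.1). In Nfic+/- libraries it gave r = 0.94 (n = 6, exact permutation p = 0.0222, adjusted 0.075) and rho = 0.89 (exact p = 0.0333, adjusted 0.12). No relation of the 18 passed an adjusted p of 0.05. Without the libraries numbered 5 and 10, which lie farthest from the median, r was 0.80 in Nfic-/- and 0.31 in Nfic+/- libraries (4 left), so in the controls the relation rested on those libraries.

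Col9a3 showed no such relation to Col9a2, with r = 0.10 in Nfic-/- (exact permutation p = 0.84, adjusted 0.847) and 0.12 in Nfic+/- libraries (exact permutation p = 0.754, adjusted 0.847), n = 6 each. The rho values were -0.14 in Nfic-/- and 0.14 in Nfic+/- libraries (exact p = 0.803 and adjusted 0.85 for each). Without the libraries numbered 5 and 10, r was 0.50 in Nfic-/- and -0.83 in Nfic+/- libraries. After median-ratio scaling, r was -0.51 in Nfic-/- and -0.44 in Nfic+/- libraries. The sign of this relation thus depended on the scaling, while Col9a1 with Col9a2 kept r = 0.93 over all 12 libraries, genotype means removed, against 0.94 unscaled.

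Msx1, a homeobox gene of the dental mesenchyme, and Krt14, the basal keratin of epithelium, served as markers of the layers. Msx1 had 10.4 to 53.3 RPKM in Nfic-/- and 23.4 to 54.1 RPKM in Nfic+/- libraries. Krt14 had 568 to 776 RPKM in Nfic-/- and 417 to 636 RPKM in Nfic+/- libraries. Msx1 was lower and Krt14 higher in the null library under all 6 numbers.

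Col9a2 with Msx1 gave r = 0.89 in Nfic-/- libraries (n = 6, exact permutation p = 0.025, adjusted 0.075; rho = 0.77, exact p = 0.103, adjusted 0.308). In Nfic+/- libraries it gave r = 0.96 (n = 6, exact permutation p = 0.0194, adjusted 0.075; rho = 0.94, exact p = 0.0167, adjusted 0.1). Without the libraries numbered 5 and 10 these were 0.78 in Nfic-/- and 0.36 in Nfic+/- libraries. Col9a3 with Krt14 gave r = -0.25 in Nfic-/- (n = 6, exact permutation p = 0.639, adjusted 0.817; rho = -0.26, exact p = 0.658, adjusted 0.79). In Nfic+/- libraries it gave r = 0.81 (n = 6, exact permutation p = 0.0514, adjusted 0.132; rho = 0.43, exact p = 0.419, adjusted 0.686). That value was -0.90 without the libraries numbered 6 and 8, so it rested on them. Col9a3 with Msx1 gave r = 0.51 in Nfic-/- and 0.18 in Nfic+/- libraries. Col9a2 with Krt14 gave -0.80 in Nfic-/- and -0.47 in Nfic+/- libraries. Col9a1 gave 0.90 and 0.96 with Msx1, and -0.76 and -0.28 with Krt14, in the same order of genotypes. The adjusted exact permutation p of each of these was 0.0625 or more.

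Msx1 differed between genotypes in the direction of Col9a2, and Krt14 in that of Col9a3. Dividing by them therefore lessens each shift by arithmetic, and the ratios are only a description. Per 100 RPKM of Msx1 there were 28.4 to 134 RPKM of Col9a2 in Nfic-/- libraries, with a median of 66.2, and 59.1 to 215 RPKM in Nfic+/- libraries, with a median of 105. This ratio was still lower in the null library under all 6 numbers. Per 100 RPKM of Krt14 there were 9.75 to 16 RPKM of Col9a3 in Nfic-/- libraries and 9.57 to 15.5 RPKM in Nfic+/- libraries, higher in the null library under 4 of 6 numbers. In such bulk tissue, fewer cells of a type and less RNA per cell cannot be told apart.

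**Figure D3:**
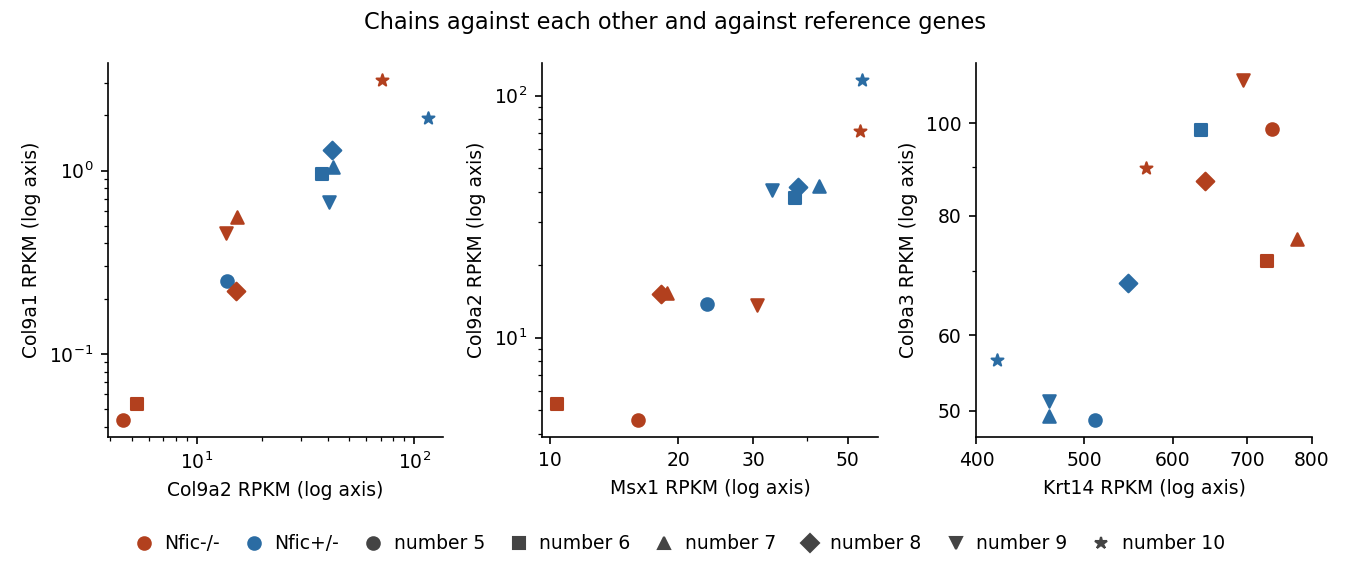
Each point is 1 library, in RPKM on log axes, coloured by genotype and shaped by number, for Col9a1 against Col9a2, Col9a2 against Msx1 and Col9a3 against Krt14. Col9a1 and Col9a2 rise together from Nfic-/- libraries 5 and 6 to the libraries numbered 10, while the Col9a3 panel parts the genotypes along both axes apart from Nfic+/- library 6.

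The genes whose pattern was most like each chain were looked for over 12 libraries, by Pearson r in log2(RPKM + 1) with each genotype's mean removed. Col9a2 was closest to Crabp1 (r = 0.98), a retinoic acid binding protein gene, Glis1 (0.97), a zinc finger factor gene, Fmod (0.97), a collagen-binding proteoglycan gene, Mab21l2 (0.96) and Gdf7 (0.96), a BMP family ligand gene. Col9a1 was closest to the BMP family genes Bmp6 (0.98) and Gdf10 (0.98), Fmod (0.98), the basement membrane collagen gene Col4a5 (0.97) and Marcks (0.97). Fmod stood in both sets. Col9a3 was closest to Cyp26a1 (0.97), the gene of a retinoic acid degrading enzyme, Irx6 (0.96), a homeobox gene, Dos (0.95), Itm2c (0.95) and Arf1 (0.94), a small GTPase gene.

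The neighbours of Col9a1 and Col9a2 mostly stood lower in the null molars. Removing the genotype means does not make genes that vary with a chain independent of its shift. Crabp1 had 16.5 ± 14.5 RPKM in Nfic-/- and 34.8 ± 21.3 RPKM in Nfic+/- molars, a difference of -1.18 (SE 0.44). Fmod had 20.1 ± 24.4 RPKM in Nfic-/- and 39.4 ± 20 RPKM in Nfic+/- molars (SD, n = 6 each), a difference of -1.31 (SE 0.51). Both had an adjusted limma p of 0.934, as did Glis1 and Gdf7. Of the 100 genes nearest to Col9a2, 99 stood below 0, with a median difference of -0.56, and of the 100 nearest to Col9a1, 97 did, with a median of -0.48. Of the 100 nearest to Col9a3, 85 stood above 0, with a median of 0.07. Over all 12094 genes tested 6180 stood below 0 and 5914 above, with a median of -0.003. These sets were chosen after values had been seen and their genes vary together, so the counts are a description.

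After median-ratio scaling, the 5 named neighbours of Col9a2 ranked 1 to 6 and those of Col9a1 1 to 8. Among those of Col9a3, Cyp26a1 ranked 3rd (r = 0.91), Dos 4th (0.90), Irx6 6th (0.87), Itm2c 25th (0.84) and Arf1 3134th (0.22). The log2 scaling factor itself correlated with Col9a1, Col9a2 and Col9a3 at r = 0.65, 0.66 and 0.72 over the 12 libraries, genotype means removed. Its part in the patterns was not tested.

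Several cartilage partners of collagen IX were near 0 in these molars. Of 18 measured cartilage genes 7 averaged 1 RPKM or more, as did 12094 of all 25899 genes. Matn1, a cartilage matrilin, had 0.00478 to 0.00641 RPKM in Nfic-/- and 0.00467 to 0.0157 RPKM in Nfic+/- libraries. Acan, the gene of the cartilage proteoglycan aggrecan, had 0.0252 to 0.447 RPKM in Nfic-/- and 0.0737 to 0.568 RPKM in Nfic+/- libraries. Col2a1, which encodes the fibril that collagen IX coats in cartilage, had 1.83 ± 0.836 RPKM in Nfic-/- and 1.80 ± 0.489 RPKM in Nfic+/- molars (SD, n = 6 each). Comp and Matn3, whose products bind collagen IX, stayed under 0.1 RPKM in every library. Matn4, another matrilin gene of the list, named after its values were seen, stood higher, at 30.4 ± 7.41 RPKM in Nfic-/- and 36.2 ± 14 RPKM in Nfic+/- molars (SD, n = 6 each).

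The other fibril partners were well expressed. Col11a1 had 26.0 ± 7.25 RPKM in Nfic-/- and 32.4 ± 5.37 RPKM in Nfic+/- molars, and Col11a2 had 72.4 ± 25.3 RPKM in Nfic-/- and 102 ± 29.6 RPKM in Nfic+/- molars (SD, n = 6 each). Sox9, the chondrocyte transcription factor gene that the tooth also expresses, had 13.1 ± 3.15 RPKM in Nfic-/- and 13.1 ± 3.95 RPKM in Nfic+/- molars, while Sox5 and Sox6 stayed below 1 RPKM. Hapln1, a link protein gene, differed by -0.72 (SE 0.34) and Cnmd, the chondromodulin gene, by -0.79 (SE 0.33), both lower under 6 of 6 numbers. Of the 7 cartilage genes tested, 0 passed in either direction (limma). Their median difference was -0.34, against -0.003 over all genes, with 6 below 0. The summed level of the 18 genes was 95.6 to 193 RPKM in Nfic-/- and 159 to 230 RPKM in Nfic+/- libraries. Col11a2 alone gave 48.1 to 108 RPKM of it in Nfic-/- and 60.4 to 133 RPKM in Nfic+/- libraries. Col2a1 gave 0.603 to 2.77 RPKM in Nfic-/- and 0.957 to 2.27 RPKM in Nfic+/- libraries, so the sum is no measure of cartilage. The part of this sum in the shifts of the chains was not tested.

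Differences of the other FACIT collagens ran from -0.83 to 0.17 in log2(RPKM + 1), with Col14a1 near 0 at 0.04 (SE 0.16). Col12a1 had 9.54 ± 6.37 RPKM in Nfic-/- and 15.4 ± 8.49 RPKM in Nfic+/- molars, and Col16a1 had 10.7 ± 8.55 RPKM in Nfic-/- and 17.8 ± 8.86 RPKM in Nfic+/- molars (SD, n = 6 each). Col14a1 had 5.96 ± 1.48 RPKM in Nfic-/- and 5.77 ± 1.38 RPKM in Nfic+/- molars (SD, n = 6 each). Of the 4 tested, 0 passed (limma), 2 stood below 0 and 2 above, with a median of -0.35.

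Among genes of collagen receptors the differences ran from -0.63 to 0.23 in log2(RPKM + 1). Of the 7 tested, 0 passed (limma), 4 stood below 0 and 3 above, and the median was -0.05. Among the integrin genes, Itga10, whose product is a subunit of a collagen II receptor, differed by -0.33 (SE 0.26), Itga1 by 0.04 (SE 0.18) and Itga2 by 0.03 (SE 0.22). The receptor kinase genes parted, with Ddr2 at -0.63 (SE 0.32) and Ddr1 at 0.23 (SE 0.12), and all these had an adjusted limma p of 0.945 or more.

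The marker lists of the tissue layers differed in opposite directions, where over all 12094 genes tested 6180 stood below 0 and 5914 above. All 12 dental mesenchyme genes stood below 0 (median -0.52) and all 12 dental epithelium genes above 0 (median 0.33), though 0 of either list passed the limma threshold. The mesenchyme sum was 1760 to 4130 RPKM in Nfic-/- and 3170 to 4850 RPKM in Nfic+/- libraries, and the epithelium sum was 2180 to 3110 RPKM in Nfic-/- and 1790 to 2500 RPKM in Nfic+/- libraries. Lum, a matrix proteoglycan gene, had 200 ± 113 RPKM in Nfic-/- and 306 ± 111 RPKM in Nfic+/- molars, and Krt5, the partner keratin of Krt14, had 758 ± 135 RPKM in Nfic-/- and 592 ± 93.4 RPKM in Nfic+/- molars (SD, n = 6 each). Pax9, a transcription factor gene of the dental mesenchyme, had 0.996 ± 0.594 RPKM in Nfic-/- and 1.81 ± 0.845 RPKM in Nfic+/- molars. Col1a1 of the mesenchyme list differed by -0.48, and Cdh1 of the epithelium list by 0.32. With genotype means removed, the mesenchyme genes correlated with Col9a2 at a median r of 0.79 and with Col9a3 at 0.37, and the epithelium genes at -0.53 and 0.31. For Col9a3, r was positive with 12 of 12 mesenchyme genes (0.08 to 0.69) and 8 of 12 epithelium genes (-0.82 to 0.78). For Col9a2, r was positive with 11 of 12 mesenchyme genes and 0 of 12 epithelium genes. How far tissue make-up enters the shifts of the chains was not tested.

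**Figure D4:**
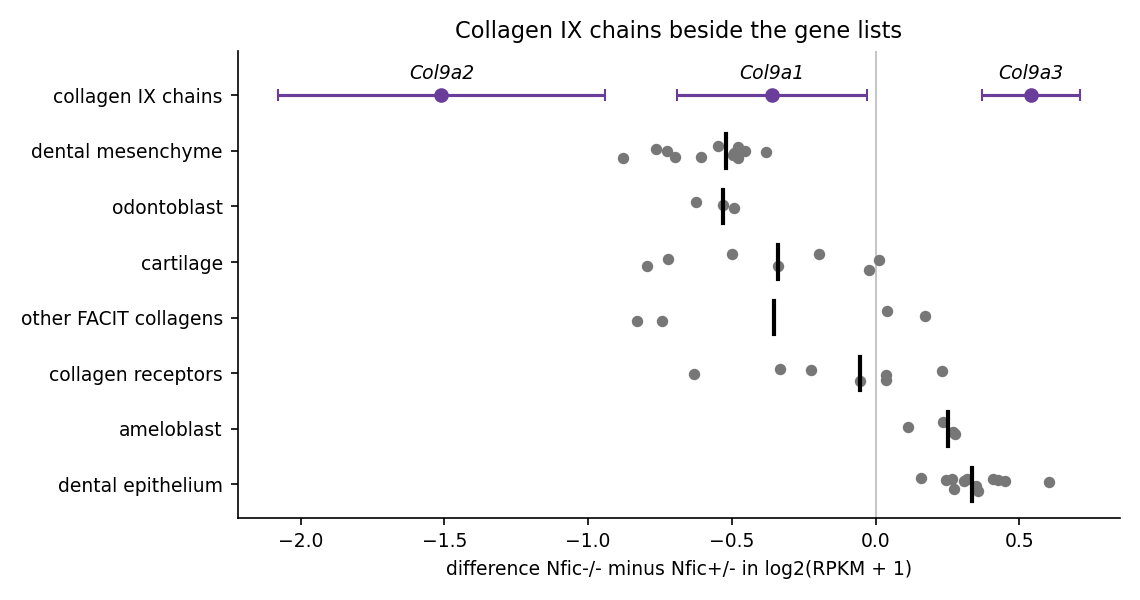
Differences Nfic-/- minus Nfic+/- in log2(RPKM + 1), with grey points for tested genes of each list, black bars for list medians, and purple points with limma standard errors for the 3 chains. Col9a2 at -1.51 lies left of every listed gene, and Col9a3 at 0.54 lies at the upper end of the epithelial genes, while 0 genes passed the threshold.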

How the data were processed

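RNA-seq of apical molar germ was analysed from 6 Nfic-/- and 6 Nfic+/- libraries. Reads were aligned with TopHat2 to mm10, per the submitters' processing notes. No version, counting tool or annotation is stated in the sources used here. The authors deposited 1 table, read here as log2 of RPKM. With base 2 the values sum over GENCODE M21 gene lengths to 0.773 to 0.835 of the reads, and with base e to an impossible 8.22 to 28.4 times. Genes without reads hold the value of 0.9 reads. Among low genes (fewer than 20 reads), 7081 values were turned into reads and 100% came out whole within 0.02 reads.

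Values were turned back to RPKM and fitted as log2(RPKM + 1) with limma 3.58.1 in R 4.3.3 (intensity trend, genotype only, mean of 1 RPKM or more), checked on simulated data. No count test was made. Members, gene lists and the named genes (fixed by role, plus the 5 genes most like each chain, leaving out predicted genes) were chosen with earlier results of these data known, and 1 of the named genes is not reported here. Alternatives were the number as a block, pseudocounts, filters, scalings, no trend and libraries left out. Python 3.11.15, scipy 1.17.1 and matplotlib 3.10.9 were used. Promoter windows are from RefSeq.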

Additional observations from a re-analysis of the deposited data

Results flagged for a closer look

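Nfic-/- library 10 held the highest Col9a1 of its group, 3.12 RPKM, against 0.0436 to 0.556 RPKM in the other 5 null libraries. Its gap to the next library was 0.709 of the group's range in log2(RPKM + 1), above Dixon's 95% limit for 6 values. The flag rests on that scale, on which adding 1 RPKM draws values under 1 RPKM together. The genotype difference of Col9a1 moved from -0.36 on that scale to -1.14 with a pseudocount of 0.1 RPKM. Whether the flag holds with a smaller pseudocount was not tested. This group was 1 of 12 examined (Col9a1, Col9a2, Col9a3, Krt14, Msx1 and Nfic in each genotype), and chance flags about 1 in 20 groups.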

How the results depend on the processing

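In every alternative run, including the replicate block and each library or number left out, 0 genes were called over all genes and 0 in each list. With the number as a block 981 genes had an unadjusted p under 0.05 (smallest adjusted p 0.0872), and the limma SE of Col9a2 was 0.20, against 0.57 without it, while that of Col9a3 was 0.18, against 0.17. Equal numbers deviated together at r from 0.00502 to 0.802, and 8 of 12 libraries were closest to their own number in the other genotype. The study is described as littermate pairs, but that an equal number marks a pair is only hinted at by these values and not stated.

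With 1 library or 1 number left out, the differences ran from -0.65 to -0.25 for Col9a1, from -1.97 to -1.21 for Col9a2 and from 0.43 to 0.74 for Col9a3. In the libraries numbered 5 to 7 alone they were -0.52, -1.81 and 0.39, and in those numbered 8 to 10 alone -0.21, -1.21 and 0.70. Col9a1 was -1.14 with a pseudocount of 0.1 RPKM and -1.58 with 0.01, because its values lie near or under 1 RPKM. The Nfic difference ran from -0.63 to -0.41 (exact permutation p up to 0.0628), with p above 0.05 without Nfic-/- 5 or 6 or Nfic+/- 6 or 10. Mean log2 ratios with 1 library left out ran from 2.39 to 3.21 (Col9a3 over Col9a2, Nfic-/-), 5.39 to 5.82 and 5.47 to 5.65 (Col9a2 over Col9a1, Nfic-/- and Nfic+/-), and 7.78 to 9.03 and 5.81 to 6.36 (Col9a3 over Col9a1, Nfic-/- and Nfic+/-). With 5 libraries no p can pass 0.05 there. For Col9a3 over Col9a2 in Nfic+/- they ran from 0.32 to 0.89. Median-ratio scaling turned r negative for Col9a3 with Col9a1 (-0.53 in Nfic-/-, -0.18 in Nfic+/-), with Col9a2 (-0.51 in Nfic-/-, -0.44 in Nfic+/-) and with Msx1 (-0.18 in Nfic-/-, -0.48 in Nfic+/-), none past the threshold before or after, and the cause was not tested.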

Other observations

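The hard-tissue cells of the molar were also compared. All 4 ameloblast genes, which serve enamel formation (Amelx, Ambn, Enam and Mmp20), stood above 0, with a median difference of 0.25 in log2(RPKM + 1). Of all 12094 genes tested, 5914 stood above 0. The summed ameloblast level overlapped widely, at 52800 to 140000 RPKM in Nfic-/- and 36000 to 142000 RPKM in Nfic+/- libraries. Its lowest value was in Nfic+/- library 6 and its highest in Nfic+/- library 5. All 3 odontoblast genes, which serve dentin formation (Dspp, Dmp1 and Phex), stood below 0, with a median of -0.53. The summed odontoblast level was 360 to 686 RPKM in Nfic-/- and 526 to 852 RPKM in Nfic+/- libraries. Of the 3 bone genes 2 stood below 0 and 1 above, with a median of -0.34. In these lists, and among the 2 muscle and 5 intestinal genes tested, 0 passed the limma threshold (median 0.34 for muscle and 0.05 for intestine).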
